A study of Mus musculus with 10 samples.

Results

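The creatine kinase and adenylate energy buffering genes described here are the genes that hold ATP steady in striated muscle. The 10 members were taken by gene symbol from the deposited gene tables, which list 23337 genes: the cytosolic creatine kinases Ckm and Ckb, the mitochondrial creatine kinase Ckmt2, the creatine transporter Slc6a8, the creatine synthesis enzymes Gatm and Gamt, the cytosolic adenylate kinase Ak1, and the AMP deaminases Ampd1, Ampd2 and Ampd3. All 10 were found.

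Creatine kinases move a phosphate between ATP and creatine, so that phosphocreatine can refill ATP when a contraction outruns its supply; a mitochondrial form charges creatine where ATP is made and cytosolic forms spend phosphocreatine near the sites of use. Adenylate kinase turns a pair of ADP molecules into ATP and AMP, and AMP deaminase removes that AMP as IMP, from which the purine nucleotide cycle can rebuild AMP.

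The study asked how an enhancer in intron 1 of Ttn, the titin gene, acts in muscle, and poly(A) RNA of left ventricle (LV) and skeletal muscle (SkM) was sequenced from wild-type (WT) mice and from mice heterozygous for a deletion of that enhancer, called E0 (E0del/+). All mice shared a hybrid background, the offspring of C57BL/6 E0del/+ parents mated with 129SvEv WT parents, and no treatment is labelled. There were 2 WT and 3 E0del/+ mice, and both tissues came from each mouse, so the 10 libraries stand for 5 animals. Batch labels run from 1 to 3 and equal the replicate number: batches 1 and 2 hold a WT and an E0del/+ mouse each, and batch 3 holds an E0del/+ mouse alone. Age, sex and the muscle that was sampled are not given in the labels used here. The age that the study states for LV RNA-Seq belongs to a set with other group sizes and was not carried over. The deletion is in the germline and heterozygous, so that 1 allele with its enhancer remains in every tissue.

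Counted reads in LV were 13019392 and 11112647 in WT 1 and WT 2, and 15361520, 11010021 and 11463197 in E0del/+ 1, 2 and 3. In SkM they were 13892390 and 17484873 in WT 1 and WT 2, and 16252062, 15009186 and 14208815 in E0del/+ 1, 2 and 3. Levels of a gene are given as CPM, its count after the library's total is scaled to 1000000 reads. Levels of different members are ranked as RPKM, which divides CPM by the length of the gene's exons in kilobases, while the gene said to lead a list of markers is the one with the most counts.

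Ttn, the gene whose enhancer was deleted, stood at 7959 and 9344 CPM in LV of WT 1 and WT 2 and at 7737, 5560 and 6597 CPM in LV of E0del/+ 1, 2 and 3. In SkM it stood at 24205 and 15856 CPM in the WT mice and at 20092, 18854 and 13585 CPM in the E0del/+ mice. By CPM every E0del/+ LV library lay below both WT LV libraries, but on the TMM scale used by the fits E0del/+ 1 (6285) lay above WT 1 (6265). The genotypes overlapped in SkM. The log2 difference of E0del/+ from WT was −0.45 (SE 0.27) in LV, with an adjusted p of 0.997, and −0.17 (SE 0.24) in SkM, with an adjusted p of 1, by the quasi-likelihood test of edgeR (Benjamini-Hochberg adjusted). Without WT 2 these differences were −0.25 (SE 0.39) and −0.33 (SE 0.29). E0 is intronic, so that gene counts of Ttn do not check the deletion itself. Nor do they separate the alleles. In mice of this hybrid cross the paper reports lower expression of the Ttn allele with the deletion in both tissues.

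The tissue labels were checked against marker genes, and 1 library stood apart. The 8 ventricular cardiomyocyte markers summed to 91814, 95602, 85348 and 99371 CPM in LV of WT 1 and E0del/+ 1, 2 and 3, and to between 187.6 and 2217 CPM in SkM, with Myh6 leading in LV. The 10 fast skeletal fibre markers summed to between 161364 and 172948 CPM in SkM and to between 160.0 and 183.3 CPM in those 4 LV libraries, with Myh4 leading in every library. LV of WT 2 held 68400 CPM of the ventricular markers and 39920 CPM of the fast fibre markers, 18473 CPM of them Myh4. LV of WT 2 is therefore given apart, and LV and SkM are compared over the other 4 mice unless all 5 are named. A second library also departed from the rest. The Y-linked genes Ddx3y, Eif2s3y, Kdm5d and Uty summed to 21.6 CPM in SkM of WT 1, where Xist, which is expressed from the inactive X chromosome, stood at 397 CPM, against 0.461 CPM in LV of the same mouse and 0.586 to 3.27 CPM in the other libraries with high Xist. Without WT 1 the same 7 members were called between the tissues.

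In LV of the 4 other mice the members spanned a wide range of RPKM. Ckm was the highest at 1551 ± 89.2 RPKM (SD, n = 4), rank 19 of all 23337 genes, and Ckmt2 came next at 1239 ± 73.3 RPKM, rank 27. Ak1 (218 RPKM), Slc6a8 (97.6 RPKM), Ckb (28.6 RPKM), Ampd3 (20.6 RPKM) and Gamt (6.89 RPKM) followed, then Ampd2 (4.95 RPKM), Gatm (1.67 RPKM) and Ampd1 (0.573 RPKM). Of the neighbours in this order only Gamt and Ampd2 overlapped between libraries.

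The order differed in SkM over the 5 mice. Ckm stood at 14121 ± 1887 RPKM (SD, n = 5), rank 4 of all genes, and was followed by Ak1 (588 RPKM), Ampd1 (510 RPKM) and Ckmt2 (448 RPKM), whose ranges overlapped from neighbour to neighbour. Slc6a8 (46.7 RPKM) and Gamt (18.1 RPKM) stood apart from their neighbours. Ampd3 (6.19 RPKM), Ampd2 (2.63 RPKM), Ckb (2.35 RPKM) and Gatm (1.60 RPKM) formed the low end, each overlapping the next. Ampd1, the lowest member in LV by RPKM, was thus among the 3 highest in SkM.

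**Figure D1:**
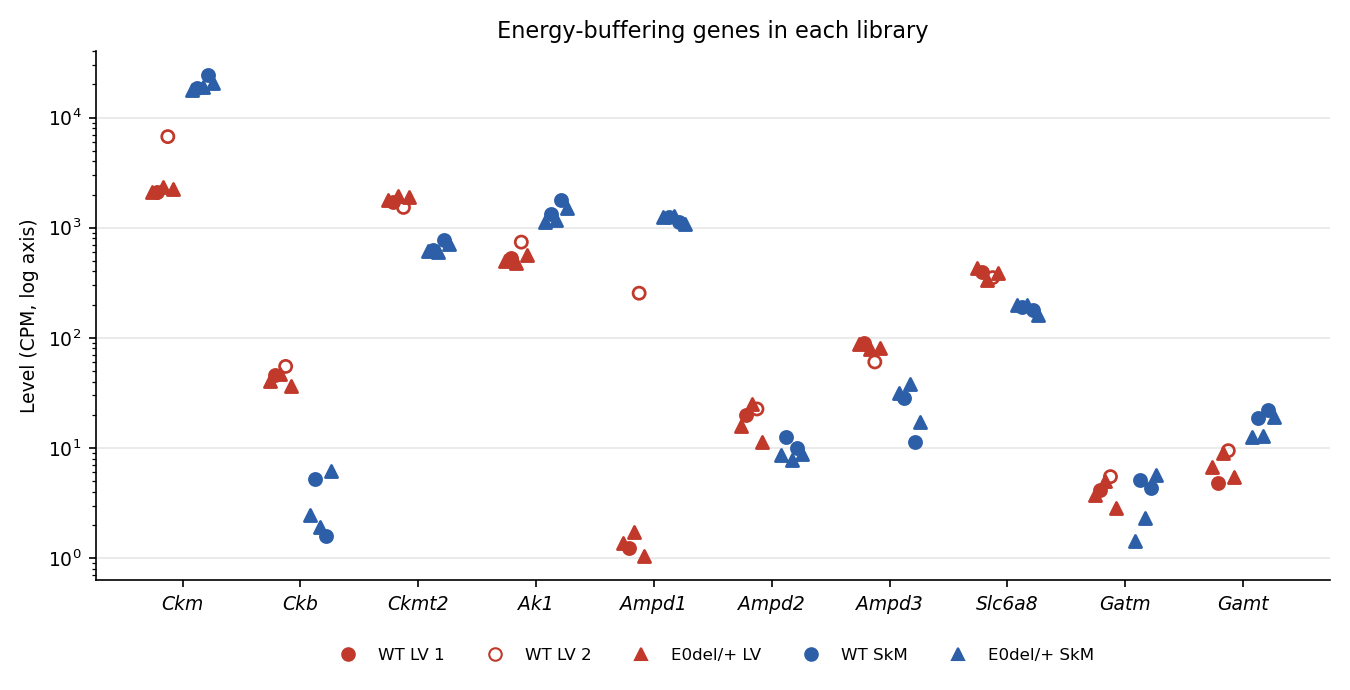
Level of each member in every library, as CPM on a log axis, with LV and SkM side by side, 1 point for each of the 10 libraries. LV of WT 2 sits away from the other 4 LV libraries for Ampd1 and Ckm.

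The paired comparison of the tissues was fitted on the counts of all genes with the mouse as a block. The 10 genes with the most counts took 27.2 to 29.5% of the SkM counts and 12.5 to 14.5% of the LV counts. The fit used TMM factors, which rescale each library to the bulk of its genes. Over all 10 libraries they ran from 1.16 to 1.40 in LV and from 0.721 to 0.885 in SkM. The 0.721 belongs to SkM of WT 2, a mouse outside this fit, and the next lowest in SkM was 0.780. With TMM factors the median log2 difference (LV minus SkM) of all 13375 genes tested was 0.02. With total counts in their place it was 0.67, a shift of 0.65. Of all genes, 4211 were higher in LV and 3991 in SkM at an adjusted p under 0.05, so that 51.3% of the calls were higher in LV, against 7683 and 1698, or 81.9%, with total counts. Log2 differences below are relative to the TMM scale.

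All 10 members passed the filter on low counts. At that threshold 3 of them, Ckb, Ckmt2 and Ampd3, were higher in LV, where 31.5% of all genes tested were, and 4, Ckm, Ak1, Ampd1 and Gamt, were higher in SkM, where 29.8% were. With a difference of at least 2-fold as well, 1 member (Ckb) was higher in LV beside 20.4% of all genes, and 4 (Ckm, Ak1, Ampd1 and Gamt) were higher in SkM beside 13.9%. Each of these 7 calls had the same direction in 4 of 4 mice. With total counts 5 members were called higher in LV, Ampd2 and Slc6a8 being added, and 4 of them (Ckb, Ckmt2, Ampd3 and Slc6a8) at 2-fold or more, beside 4816 of all 13375 genes tested. The same 4 members were higher in SkM at 2-fold or more, beside 928 of all genes (6.94%). In bulk tissue, fewer cells of a type and less RNA per cell cannot be told apart.

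**Figure D2:**
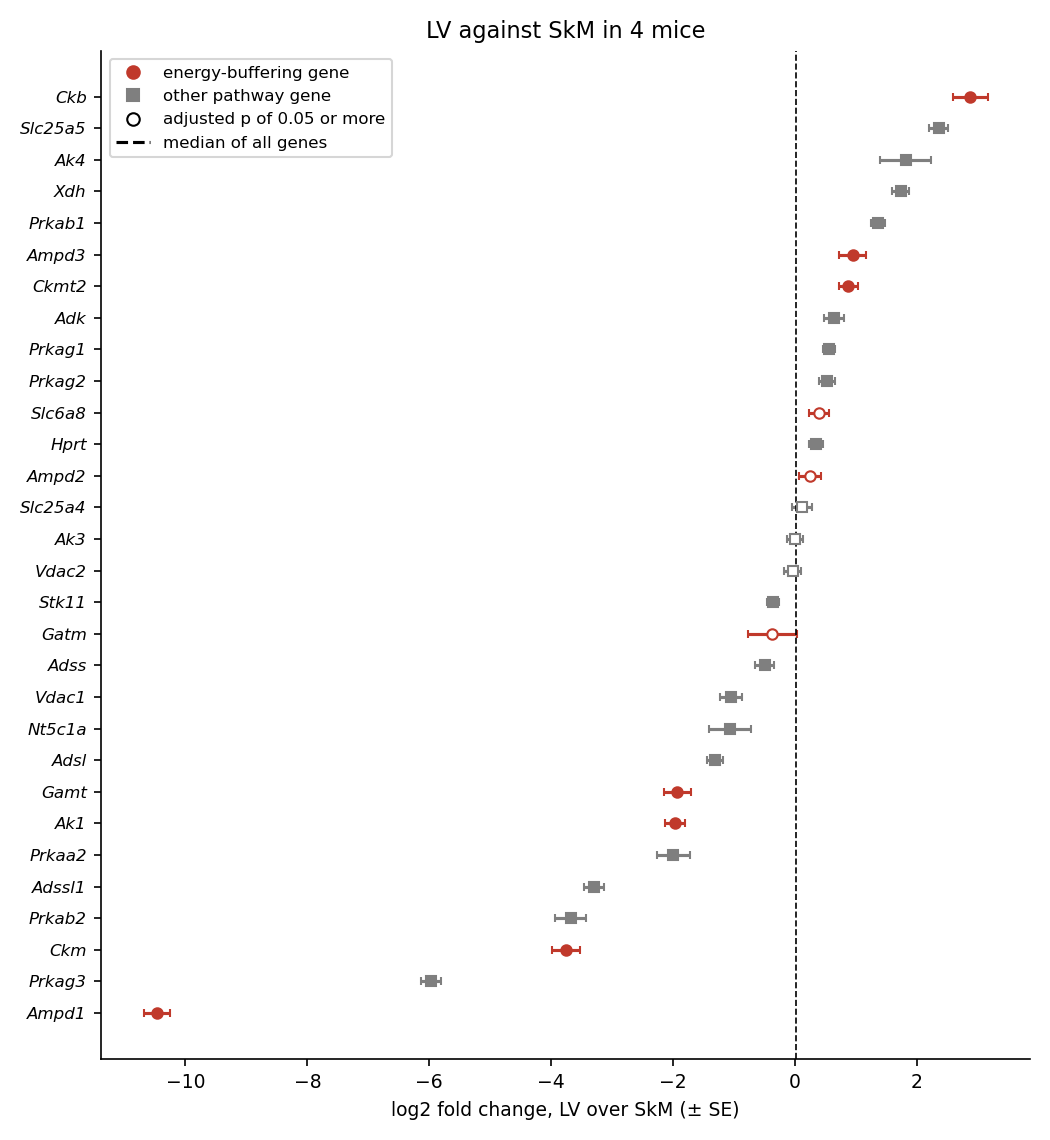
Log2 difference between LV and SkM of each member and of other genes of the pathways from the paired fit over 4 mice, with standard errors; values to the right of 0 are higher in LV, and open points were not called. Ampd1 lies farthest from 0 at −10.47 and Ckb highest at 2.87.

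Ckm encodes the muscle creatine kinase of the cytosol and the sarcomere. It stood at 2089 CPM in LV of WT 1 and at 2087, 2339 and 2261 CPM in LV of E0del/+ 1, 2 and 3, with 6710 CPM in LV of WT 2. In SkM it stood at 18513 and 24423 CPM in WT 1 and WT 2 and at 17688, 18881 and 20398 CPM in E0del/+ 1, 2 and 3. Every SkM library lay above every LV library, and the WT 2 mouse was the highest in both tissues. The paired difference was −3.76 on the log2 scale (SE 0.23), 13.5-fold lower in LV in 4 of 4 mice, with an adjusted p of 1e-05 by the quasi-likelihood test of edgeR (Benjamini-Hochberg adjusted), and no more than 0.000283 in any of 11 alternatives.

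Ckb encodes the brain-type cytosolic creatine kinase. It stood at 46.1 CPM in LV of WT 1, at 40.4, 46.5 and 36.4 CPM in LV of E0del/+ 1, 2 and 3, and at 55.0 CPM in LV of WT 2. In SkM it stood at 5.18 and 1.60 CPM in WT 1 and WT 2 and at 2.46, 1.93 and 6.19 CPM in E0del/+ 1, 2 and 3, which rest on 28 to 88 counts a library. No SkM library reached any LV library, and LV of WT 2, which held fast fibre transcripts, was the highest for Ckb. The paired log2 difference was 2.87 (SE 0.29), 7.33-fold higher in LV in 4 of 4 mice, with an adjusted p of 0.000104 by the same edgeR test and at most 0.000839 in the alternatives.

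Ckmt2 encodes the sarcomeric creatine kinase of the mitochondrial intermembrane space. It stood at 1708 CPM in LV of WT 1, at 1799, 1949 and 1909 CPM in LV of E0del/+ 1, 2 and 3, and at 1527 CPM in LV of WT 2. SkM of the same mice gave 620.9 and 777.1 CPM in WT and 610.6, 606.4 and 712.3 CPM in the E0del/+ mice. All LV libraries lay above all SkM libraries, WT 2 being the lowest in LV and the highest in SkM. The paired log2 difference was 0.88 (SE 0.15), 1.84-fold higher in LV in 4 of 4 mice, with an adjusted p of 0.00162 by the same edgeR test and at most 0.0186 in the alternatives. Ckmt1, the ubiquitous mitochondrial creatine kinase, was too low to be tested between the tissues, with 7 to 14 counts in the 4 LV libraries, 73 in LV of WT 2 and 1 to 10 in SkM.

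The promoters of these 3 creatine kinases are shown because the genes differ in tissue and in compartment. Each runs from 250 bases before to 50 bases after the start of transcription, in RefSeq's GRCm38.p6 table, read along the gene's strand. The table held 14 promoters of 8 of the 10 members. Ampd1 and Slc6a8 had no entry. Ckm lies at chr7:19410844-19411143 on the plus strand, Ckb at chr12:111672289-111672588 on the minus strand and Ckmt2 at chr13:91876836-91877135 on the minus strand.
Ckm: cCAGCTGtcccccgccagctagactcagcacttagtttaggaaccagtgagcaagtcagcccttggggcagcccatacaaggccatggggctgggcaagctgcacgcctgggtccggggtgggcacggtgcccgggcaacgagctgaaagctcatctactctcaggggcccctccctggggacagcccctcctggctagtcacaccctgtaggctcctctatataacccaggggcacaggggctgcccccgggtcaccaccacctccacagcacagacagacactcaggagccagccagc
Ckb: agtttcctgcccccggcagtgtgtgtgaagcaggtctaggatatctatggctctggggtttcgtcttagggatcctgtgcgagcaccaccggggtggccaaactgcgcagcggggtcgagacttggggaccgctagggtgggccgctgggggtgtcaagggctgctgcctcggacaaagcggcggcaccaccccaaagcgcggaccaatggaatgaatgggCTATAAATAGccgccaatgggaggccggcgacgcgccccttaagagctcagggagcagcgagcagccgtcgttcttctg
Ckmt2: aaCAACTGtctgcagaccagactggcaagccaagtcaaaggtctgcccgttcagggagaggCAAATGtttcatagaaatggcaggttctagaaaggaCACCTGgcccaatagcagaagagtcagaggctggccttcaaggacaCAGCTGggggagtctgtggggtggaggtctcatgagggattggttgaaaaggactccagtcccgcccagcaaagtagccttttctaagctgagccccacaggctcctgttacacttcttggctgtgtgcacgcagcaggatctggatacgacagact

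Capitals mark matches to 6 motifs that were searched on both strands: the E-box CANNTG and, within it, the form CAGCTG, the TATA box TATAAA, the nuclear receptor half-site AAGGTCA, the MEF2 motif and the CArG box. Of 32851 RefSeq promoters of the same length, 72.3% held CANNTG, 16.3% CAGCTG, 13.6% TATAAA, 4.72% AAGGTCA, 3.19% the MEF2 motif and 1.63% the CArG box. In the Ckm window the only match was CAGCTG at −249 from the start. The Ckb window held TATAAA at −28 inside a MEF2 match at −29, and no CANNTG. The Ckmt2 window held CANNTG at −248, −189, −153 and −107, the last of them CAGCTG. The Ckb window had 22 CG pairs and 63.0% G or C, the Ckm window 7 and 64.7%, and the Ckmt2 window 4 and 53.7%, beside medians of 7 and 52.7% over all promoters. These matches describe letters and were not tested as binding sites.

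The make-up of the creatine kinase transcripts was taken as each gene's share of the summed RPKM of Ckm, Ckb, Ckmt1 and Ckmt2 in a library. In LV, Ckm made up 55.0% ± 0.492 (SD, n = 4) and Ckmt2 44.0% ± 0.580, while in SkM of the same mice Ckm made up 96.9% ± 0.117 and Ckmt2 3.12% ± 0.111. The Ckb share was 1.02% in LV and 0.0191% in SkM, and the Ckmt1 share 0.0204% and 0.00149%. The cytosolic and the mitochondrial muscle forms were thus near parity in LV, with a Ckm to Ckmt2 ratio of RPKM of 1.22 to 1.28, against 30.1 to 33.0 in the 5 SkM libraries. The share of Ckm was lower in LV by 41.9 percentage points and that of Ckmt2 higher by 40.8 percentage points, in 4 of 4 mice. The exact two-sided sign permutation gave for each the smallest p that 4 mice allow, which is above 0.05, and with all 5 mice it was above 0.05 as well. The summed RPKM of the family was 2819 ± 160 in LV and 13768 ± 833 in SkM.

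**Figure D3:**
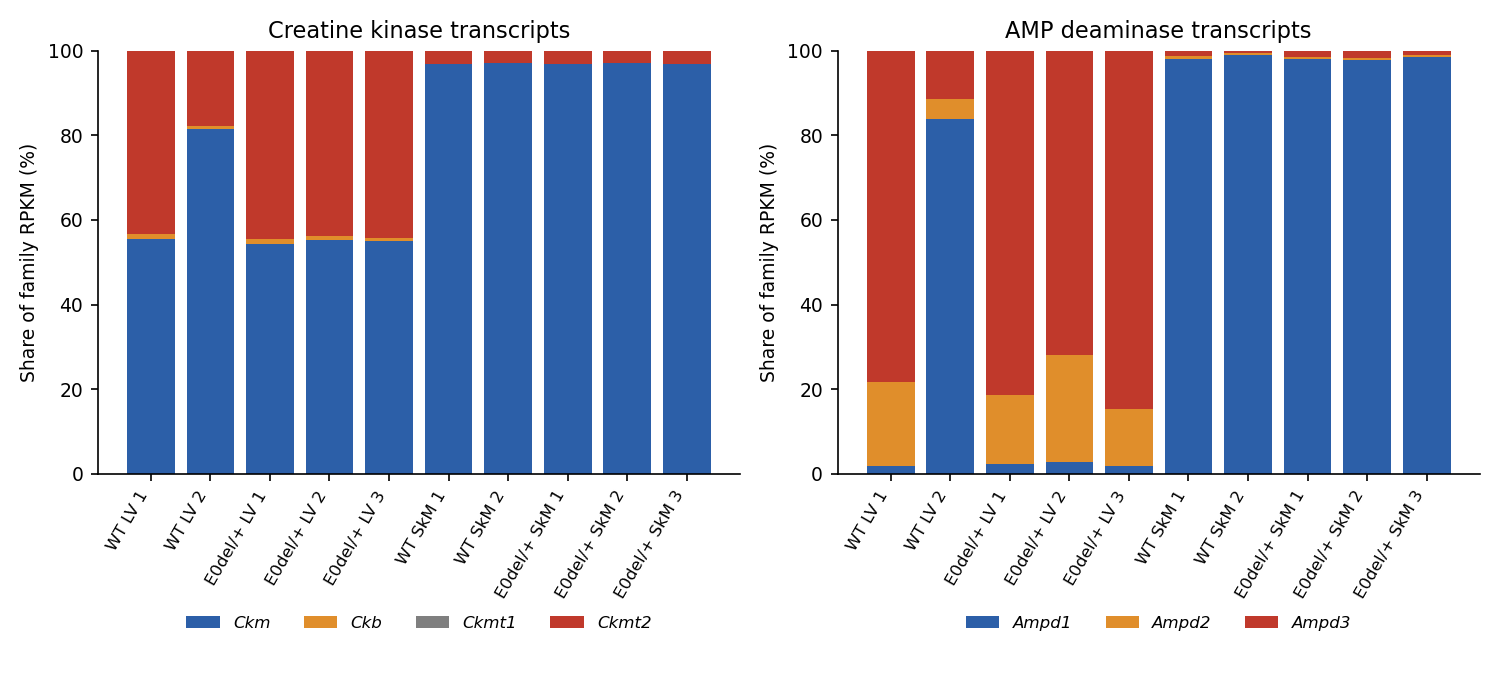
Share of each isoform in the summed RPKM of its family, in percent, in each of the 10 libraries, for creatine kinases and AMP deaminases. LV of WT 2, at 81.6% Ckm and 83.8% Ampd1, lies between the other LV libraries and SkM.

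Slc6a8 encodes the creatine transporter of the plasma membrane and lies on chromosome X. It ranged from 337.6 to 426.3 CPM in the 5 LV libraries and from 161.1 to 200.2 CPM in SkM, without overlap on that scale. On the TMM scale its log2 difference was 0.39 (SE 0.17), higher in LV in 3 of 4 mice, and missed the threshold with an adjusted p of 0.0767 by the quasi-likelihood test of edgeR (Benjamini-Hochberg adjusted). Its adjusted p ran from 0.000203 to 0.255 over the alternatives and was under 0.05 in 4 of 11: with total counts, with at least 10 counts in every library (0.0412), without the mouse as a block (0.0301) and without E0del/+ replicate 2, where the log2 difference was 0.58 and the adjusted p 0.00169.

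Gatm and Gamt carry out the successive steps of creatine synthesis. Gatm stood at 2.88 to 5.49 CPM in LV and 1.42 to 5.63 CPM in SkM, which overlapped, with a log2 difference of −0.37 (SE 0.40), an adjusted p of 0.450 by the same edgeR test and 2 of 4 mice in each direction. That sign turned without E0del/+ replicate 3 (0.03) and with total counts (0.28), and no alternative passed the threshold. Gamt stood at 4.84 to 9.45 CPM in LV and 12.5 to 22.3 CPM in SkM, without overlap. Its log2 difference was −1.93 (SE 0.23), 3.80-fold lower in LV in 4 of 4 mice, with an adjusted p of 0.000241 by the same edgeR test and at most 0.00571 in the alternatives.

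Ak1, the cytosolic adenylate kinase, stood at 527 CPM in LV of WT 1, at 494, 478 and 566 CPM in LV of E0del/+ 1, 2 and 3, and at 739 CPM in LV of WT 2. SkM held 1343 and 1792 CPM of it in the WT mice and 1136, 1175 and 1507 CPM in the E0del/+ mice. The tissues did not overlap, and the WT 2 mouse was again the highest in both. The paired log2 difference was −1.97 (SE 0.16), 3.91-fold lower in LV in 4 of 4 mice, with an adjusted p of 4.15e-05 by the quasi-likelihood test of edgeR (Benjamini-Hochberg adjusted) and at most 0.000664 in the alternatives.

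Ampd1 encodes the AMP deaminase of skeletal muscle. It stood at 1.23 CPM in LV of WT 1 and at 1.37, 1.73 and 1.05 CPM in LV of E0del/+ 1, 2 and 3, which are 12 to 21 counts a library, and at 254 CPM, or 2824 counts, in LV of WT 2. In SkM it stood at 1238 and 1136 CPM in the WT mice and at 1255, 1265 and 1078 CPM in the E0del/+ mice. It was steady across SkM, with a highest to lowest ratio of 1.17, and the 4 LV libraries lay far below. The paired log2 difference was −10.47 (SE 0.22), 1418-fold lower in LV in 4 of 4 mice, with an adjusted p of 2.48e-07 by the same edgeR test. With all 5 mice it was −9.50 (SE 1.48), with an adjusted p of 0.000861, the highest of the alternatives.

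Ampd3, the erythrocyte-type AMP deaminase, stood at 89.3 CPM in LV of WT 1, at 87.9, 79.3 and 80.5 CPM in LV of E0del/+ 1, 2 and 3, and at 60.4 CPM in LV of WT 2. In SkM it stood at 28.4 and 11.2 CPM in the WT mice and at 31.6, 38.0 and 17.2 CPM in the E0del/+ mice. All LV libraries lay above all SkM libraries, and SkM spread more than LV. The paired log2 difference was 0.95 (SE 0.22), 1.93-fold higher in LV in 4 of 4 mice, with an adjusted p of 0.00727 by the same edgeR test and at most 0.0333 in the alternatives. Ampd2, the liver-type form, ranged from 11.3 to 24.9 CPM in LV and from 7.80 to 12.6 CPM in SkM, with a log2 difference of 0.25 (SE 0.18) that missed the threshold with an adjusted p of 0.258, higher in LV in 3 of 4 mice. Over the alternatives its adjusted p ran from 0.0115, with total counts, to 0.671.

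By share of the summed RPKM of the AMP deaminases, LV was mostly Ampd3 and SkM almost wholly Ampd1. Ampd3 made up 79.1% ± 5.40 (SD, n = 4), Ampd2 18.7% ± 5.09 and Ampd1 2.19% ± 0.392 in LV. In SkM of the same mice Ampd1 made up 98.2% ± 0.281, Ampd3 1.32% ± 0.325 and Ampd2 0.495% ± 0.111. The shares differed in the same direction in 4 of 4 mice, by −96.0 percentage points for Ampd1, 77.8 for Ampd3 and 18.2 for Ampd2 (LV minus SkM), each again at the smallest p that the exact two-sided sign permutation allows. The summed RPKM of the family was 26.2 ± 2.01 in LV and 526 ± 39.6 in SkM.

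Genes whose exons overlap a member in GENCODE M21 make 4 of these levels less certain. They are A930016O22Rik, antisense to Ckm, 1700119I11Rik, antisense to Ckmt2, Gm12500, antisense to Ampd2, and Gm47282, a microRNA gene within Ampd3. For the antisense genes, the library kit does not mark strand and the use of strand in counting is not given in the sources used here. Gm47282 lies on the same strand as Ampd3, so that strand would not separate their reads. None of these 4 genes is listed in the gene tables.

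The members were set beside 29 other genes of the same pathways, of which 27 were tested between the tissues. Of these, 11 were higher in LV and 11 in SkM, with a median log2 difference of 0.11, beside 4211 and 3991 of 13375 and a median of 0.02 over all genes. Under total counts 5 of the 37 pathway genes tested, members included, changed sign: Gatm, Adss, Prkaa1, Stk11 and Vdac2. Among the genes outside the members, Ak3, Slc25a4 and Vdac2 were then called higher in LV as well. Prkaa1 and Stk11 moved from the calls in SkM to those in LV, and Adss and Nt5c1a were no longer called. Over all genes the calls under total counts were 7683 higher in LV and 1698 in SkM.

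The creatine kinase system (6 genes tested, 2 higher in LV and 2 in SkM, median log2 difference 0.01) held only members among its tested genes. Beside Ak1, the adenylate kinase gene Ak4, a mitochondrial matrix form, had a log2 difference of 1.82 with an adjusted p of 0.00681, higher in LV in 4 of 4 mice, while Ak3, also of the matrix (0.00, and −0.0608 without E0del/+ 3), was not called. With total counts Ak3 was called (0.65, adjusted p 0.000505). Ak5 was too low to be tested.

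Of the 6 genes of the purine nucleotide cycle, 1 was higher in LV (Ampd3) and 4 in SkM, with a median log2 difference of −0.90. Adssl1, the muscle adenylosuccinate synthase, differed by −3.30 (adjusted p 4.36e-06) and Adsl, the lyase that follows it, by −1.31 (adjusted p 9.62e-05), both lower in LV in 4 of 4 mice by the same edgeR test. Adss, the other synthase, differed by −0.50 (adjusted p 0.0253), lower in 3 of 4 mice. Its call was lost without WT 1, without E0del/+ 1 and without E0del/+ 3 (adjusted p 0.0699 to 0.111), and its sign turned with total counts (0.15). By RPKM, Adssl1 averaged 79.2 in LV and 498 in SkM of the same 4 mice, where Ampd1 averaged 516.

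Of 8 genes for AMP and purine handling, 6 were higher in LV and 1 in SkM, with a median log2 difference of 0.89. Xdh, which makes uric acid, differed by 1.74 (adjusted p 3.75e-05), the adenosine kinase gene Adk by 0.65 (adjusted p 0.00969) and the salvage gene Hprt by 0.35 (adjusted p 0.0335), each higher in LV in 4 of 4 mice by the same edgeR test. Nt5c1a, a cytosolic nucleotidase that acts on AMP, differed by −1.07 (adjusted p 0.0305), lower in LV in 4 of 4 mice. The call of Hprt was lost by DESeq2's Wald test (adjusted p 0.0706), without WT 1, without E0del/+ 1 and without E0del/+ 3 (highest adjusted p 0.127), and that of Nt5c1a with total counts (−0.44) and with all 5 mice (−0.71).

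The kinase AMPK, which senses AMP, showed its subunits split between the tissues: of 8 genes with the upstream kinase included, 3 were higher in LV and 5 in SkM, with a median log2 difference of −0.35. Prkag3 differed by −5.96 (adjusted p 3.68e-07) and Prkab2 by −3.68 (adjusted p 1.7e-05), and Prkaa2 was 3.99-fold lower in LV (adjusted p 0.000504), each in 4 of 4 mice. Prkab1 differed by 1.36 (adjusted p 4.37e-05), Prkag1 by 0.55 (adjusted p 0.00209) and Prkag2 by 0.52 (adjusted p 0.0110), each higher in LV in 4 of 4 mice. The beta and gamma subunits therefore differed in opposite directions by isoform, as the creatine kinases and AMP deaminases did. The upstream kinase Stk11 differed by −0.36 (adjusted p 0.0175), lower in 4 of 4 mice, and was called the other way with total counts (0.29, adjusted p 0.0305). Without WT 1 the calls of Prkag2 (adjusted p 0.0635) and Stk11 (0.0831) were lost, and that of Stk11 also without E0del/+ 1 (0.0745) and without E0del/+ 3 (0.0623). Prkaa1, singled out after its values were seen, differed by −0.34 (adjusted p 0.0378) and kept its call in 3 of 11 alternatives. It was called the other way with total counts (0.31, adjusted p 0.0377) and was lost in 7 others (highest adjusted p 0.126), among them the fits without WT 1, without E0del/+ 1 and without E0del/+ 2.

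Of 5 genes for mitochondrial adenylate exchange, 1 was higher in LV and 2 in SkM, with a median log2 difference of −0.04. The ADP/ATP carrier Slc25a4 averaged 2782 RPKM in LV and 1624 RPKM in SkM of the same 4 mice and did not pass the test (log2 difference 0.12, adjusted p 0.560, higher in LV in 4 of 4 mice), whereas its relative Slc25a5 differed by 2.36 (adjusted p 1.41e-05, higher in 4 of 4 mice). The outer membrane channel Vdac1 differed by −1.05 (adjusted p 0.00164, lower in 4 of 4 mice) and Vdac2 by −0.04 (adjusted p 0.831). With total counts Slc25a4 (0.77, adjusted p 0.00140) and Vdac2 (0.62, adjusted p 0.00126) were called higher in LV, and with all 5 mice Slc25a4 stood at −0.04. Vdac2 turned sign in 3 further alternatives (0.0167 to 0.0192), among them the fits without E0del/+ 2 and without E0del/+ 3.

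LV of WT 2 lay part of the way from the other LV libraries to SkM for 7 of the 10 members. Taking the mean CPM of the other 4 LV libraries as 0% and the mean of the 5 SkM libraries as 100%, it lay at 25.4% for Ckm, 21.2% for Ampd1, 25.5% for Ak1, 26.7% for Ckmt2, 27.9% for Gamt and 18.1% for Slc6a8. The 10 fast fibre markers lay at a median of 22.7%, from 16.3 to 24.7%. Ampd3 lay at 40.5%, while Ckb, Ampd2 and Gatm lay outside the interval, at −32.6%, −53.5% and −936.5%, that is, away from SkM. For Gatm the means that set the scale were close, at 3.93 CPM in LV and 3.77 CPM in SkM.

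The shares of that library followed. Its creatine kinase RPKM was 81.6% Ckm and 17.7% Ckmt2, from 74568 and 16970 counts, and its AMP deaminase RPKM was 83.8% Ampd1, 11.4% Ampd3 and 4.78% Ampd2. Its Ckm to Ckmt2 ratio was 4.61 and its summed RPKM was 5811 for creatine kinases and 129.5 for AMP deaminases. Of the 22 pathway genes outside the members that were called between the tissues, 19 lay between 0% and 100% of the way to SkM, from 5.28% (Nt5c2) to 47.1% (Vdac1) with a median of 26.9%. The other 3 lay outside, Adss at −352.2%, Nt5c1a at 433.8% and Stk11 at 107.8%. The adipocyte markers, led by Cfd, summed to 279 CPM there, against 1.83 to 23.7 CPM in the other LV libraries, 8.69 CPM in SkM of the same mouse and 147 to 1183 CPM in the other SkM libraries. The part of these transcripts in the levels of the members was not tested.

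E0del/+ was compared with WT in LV over all 5 libraries. By edgeR's quasi-likelihood test 0 of 13420 genes (0%) passed an adjusted p of 0.05, and 0 of the 10 members. DESeq2's Wald test also gave 0. At an unadjusted p under 0.05, 564 genes (4.20%) and 2 members passed, Ckm and Ampd1. Ckm differed by −1.08 on the log2 scale (SE 0.44, unadjusted p 0.0400, adjusted p 0.997) and Ampd1 by −6.66 (SE 1.57, unadjusted p 0.00268, adjusted p 0.997) in that edgeR test. Within batch 1, Ckm in LV stood at 2089 CPM in WT and 2087 CPM in E0del/+, and within batch 2 at 6710 and 2339 CPM. Ampd1 stood at 1.23 and 1.37 CPM in batch 1 and at 254 and 1.73 CPM in batch 2.

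Both rested on LV of WT 2. Without it, Ckm differed by 0.10 (SE 0.33) and Ampd1 by 0.16 (SE 0.63), with 0 of 13890 genes called and 104 at an unadjusted p under 0.05. Without WT 1, which leaves WT 2 as the only WT library and takes its spread from the E0del/+ libraries, 578 genes were called, 574 of them lower in E0del/+, among them Ckm (−1.72, adjusted p 0.0114) and Ampd1 (−7.65, adjusted p 4.91e-08). Over 12 alternatives the adjusted p ran from 0.0114 to 1 for Ckm and from 4.91e-08 to 1 for Ampd1. The 10 fast fibre markers all had an unadjusted p under 0.05 in the fit on all 5 libraries, with a median log2 difference of −6.84.

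The other 8 members differed by between −0.41 (Gatm) and 0.16 (Ckmt2) on the log2 scale in LV. Without WT 2, Ampd3 turned from 0.09 to −0.11 and Gamt from −0.11 to 0.53. By CPM, Ckmt2 was the only member with every E0del/+ library above every WT library, beside 8.82% of all genes, and 0 members had every E0del/+ library below, beside 6.53%, although on the TMM scale Ckb did. With the batch label as a block, which pairs WT and E0del/+ in batches 1 and 2, 5 genes were called in LV in place of 0, and 0 of them were members. The median log2 difference was −0.38 over the members and −0.01 over all genes, and over the members it was −0.0313 without WT 2.

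**Figure D4:**
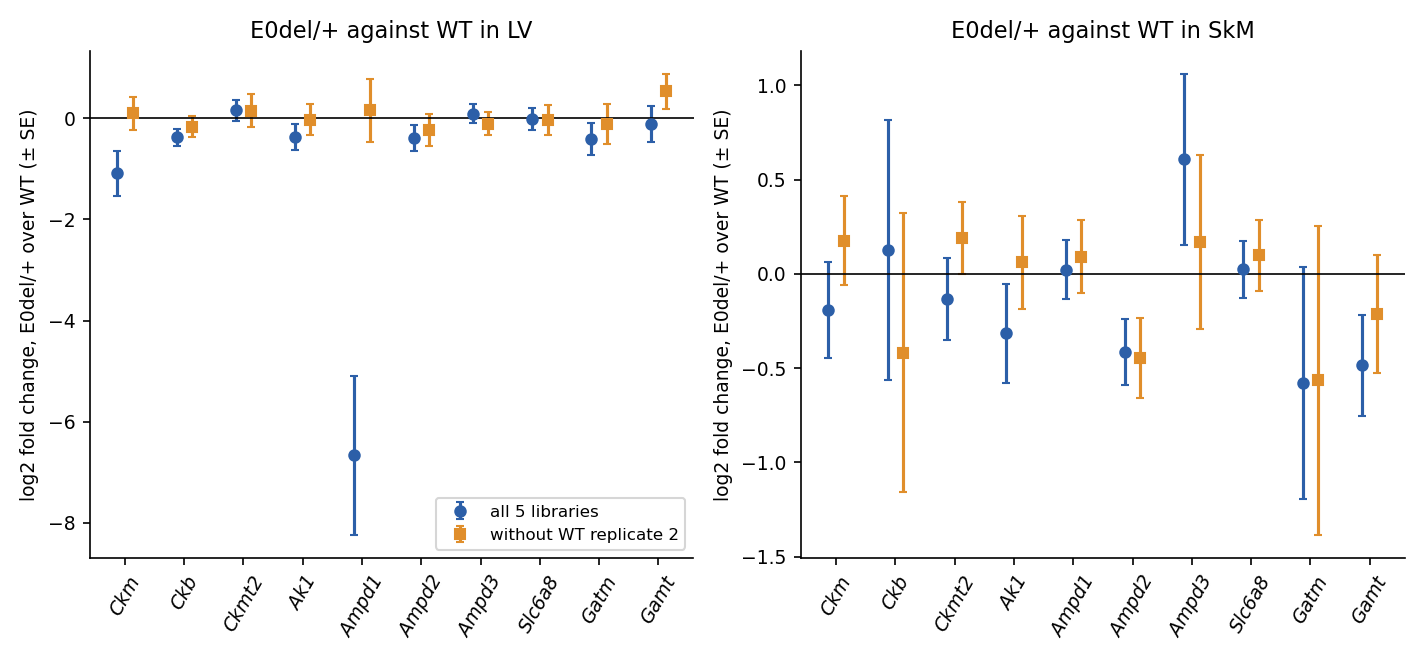
Log2 difference of E0del/+ from WT for each member in LV and in SkM, with standard errors, on all libraries and without WT 2; the vertical scale differs between the panels. In LV, Ampd1 (−6.66) and Ckm (−1.08) move to 0.16 and 0.10 without WT 2.

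In SkM 0 of 13154 genes (0%) passed by edgeR's quasi-likelihood test and 0 by DESeq2's Wald test, and 114 genes (0.867%) and 0 members had an unadjusted p under 0.05. With the batch block 1 gene was called, which was not a member, and 596 genes and 3 members had an unadjusted p under 0.05: Gatm (−1.36, SE 0.45, p 0.0211), Gamt (−0.69, SE 0.22, p 0.0160) and Ampd3 (0.95, SE 0.35, p 0.0319), each with an adjusted p of 0.999. Over the 12 alternatives 0 to 3 members had an unadjusted p under 0.05. Among the members Ampd3 differed by 0.61 on the log2 scale (SE 0.45), Gatm by −0.58 (SE 0.62), Gamt by −0.49 (SE 0.27) and Ampd2 by −0.41 (SE 0.17), and the other 6 by between −0.32 (Ak1) and 0.13 (Ckb), each with an adjusted p of 1. By CPM, Ampd2 was the only member with every E0del/+ library below every WT library, at 12.6 and 10.1 CPM in WT and 8.68, 7.80 and 8.80 CPM in E0del/+, beside 7.31% of all genes. There were 0 members with every E0del/+ library above, beside 4.14%. The median log2 difference was −0.16 over the members and −0.01 over all genes, and over the members it was 0.0762 without WT 2.

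Within batch 1, Ampd3 in SkM stood at 28.4 CPM in WT and 31.6 CPM in E0del/+, and within batch 2 at 11.2 and 38.0 CPM. Gatm stood at 5.11 and 1.42 CPM in batch 1 and at 4.35 and 2.33 CPM in batch 2, and Gamt at 18.8 and 12.5 CPM and at 22.3 and 12.8 CPM, so that both were lower in E0del/+ in both pairs. By CPM, Ckm, Ckmt2, Ak1 and Ampd2 were lower in E0del/+ in both pairs as well. The share of all genes that did so was not counted. E0del/+ 3, which has no WT mouse in its batch, stood at 5.63 CPM for Gatm and 18.9 CPM for Gamt. With 1 library left out Gatm ran from −1.35 (without E0del/+ 3) to −0.22 (without E0del/+ 1), Gamt from −0.75 (without E0del/+ 3) to −0.21 (without WT 2) and Ampd3 from 0.17 (without WT 2) to 1.25 (without WT 1). The WT 2 library also set signs in SkM. Without it, Ckm turned from −0.19 to 0.18, Ckmt2 from −0.13 to 0.19, Ak1 from −0.32 to 0.06 and Ckb from 0.13 to −0.42. None of the members passed an adjusted p of 0.05 in any of 12 alternatives.

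Whether the genotype difference itself differed between the tissues was tested as an interaction over all 10 libraries. By edgeR's quasi-likelihood test 0 of 14327 genes (0%) passed, and 0 by DESeq2's Wald test, with 238 genes (1.66%) and 0 of the 10 members at an unadjusted p under 0.05. The interaction (LV minus SkM) was −0.62 for Ckm (SE 0.69) and −4.13 for Ampd1 (SE 2.62) on the log2 scale, each with an adjusted p of 1. Without the WT 2 mouse it was −0.16 and −0.02. Without the WT 1 mouse 155 genes were called, among them Ampd1 with −7.57 and an adjusted p of 0.00182, and over the 11 alternatives its adjusted p ran from 0.00182 to 1.

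Levels in SkM differed widely between the 5 mice for Gatm, Ckb and Ampd3. The highest to lowest ratio of CPM over the 5 SkM libraries was 3.98 for Gatm, 3.87 for Ckb and 3.39 for Ampd3, and 1.17 to 1.78 for the other 7. Over all genes tested the median ratio was 1.56. Gatm rests there on 23 to 80 counts a library and Ckb on 28 to 88. Ckm, Ckmt2, Ak1 and Gamt each were highest in WT 2 and next in E0del/+ 3. Ampd3 was lowest in those 2 mice, with E0del/+ 2 the highest, then E0del/+ 1, WT 1, E0del/+ 3 and WT 2.

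The following genes were singled out after their values were seen. The fibre genes Myh1, Myh2, Myh7, Tnnt1 and Tnni1 ran through the 5 mice in the same order as Ampd3. Of these, Myh1 and Myh2 belong to the fast fibre list. Myh4, which leads that list, ran in another order: E0del/+ 3, WT 2, WT 1, E0del/+ 2 and E0del/+ 1 from highest to lowest. Its highest to lowest ratio was 1.13. Myh7, the slow myosin heavy chain, stood at 824 and 73.8 CPM in SkM of WT 1 and WT 2 and at 1193, 1548 and 160 CPM in E0del/+ 1, 2 and 3. Ak4 stood at 11.2 and 0.915 CPM in the WT mice and at 8.25, 8.66 and 1.97 CPM in the E0del/+ mice, low in the same 2 mice as Ampd3. The whole list of 4 slow fibre markers, led by Myh7, summed to 1011 and 93.4 CPM in WT and to 1408, 1871 and 200.2 CPM in E0del/+. The sum of the fast fibre list varied little, as given above.

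Xist divided the mice the same way: in SkM it stood at 397, 364 and 279 CPM in WT 1, E0del/+ 1 and E0del/+ 2 and at 0.343 and 0.422 CPM in WT 2 and E0del/+ 3. In SkM the Y-linked genes Ddx3y, Eif2s3y, Kdm5d and Uty summed to 158.5 and 177.1 CPM in WT 2 and E0del/+ 3. They summed to 21.59, 0.8614 and 0.7995 CPM in WT 1, E0del/+ 1 and E0del/+ 2. Each genotype held mice of both kinds. With Xist as a block, chosen after the data were seen, 306 of 13154 genes and 2 members had an unadjusted p under 0.05 in SkM by edgeR's quasi-likelihood test. Ampd3 differed there between genotypes by 0.46 (SE 0.16, unadjusted p 0.0347) on the log2 scale and Gamt by −0.40 (SE 0.13, unadjusted p 0.0291), each with an adjusted p of 1. Sex, fibre make-up and sampling site cannot be told apart here, and their part in the spread of Ampd3 was not tested.

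**Figure D5:**
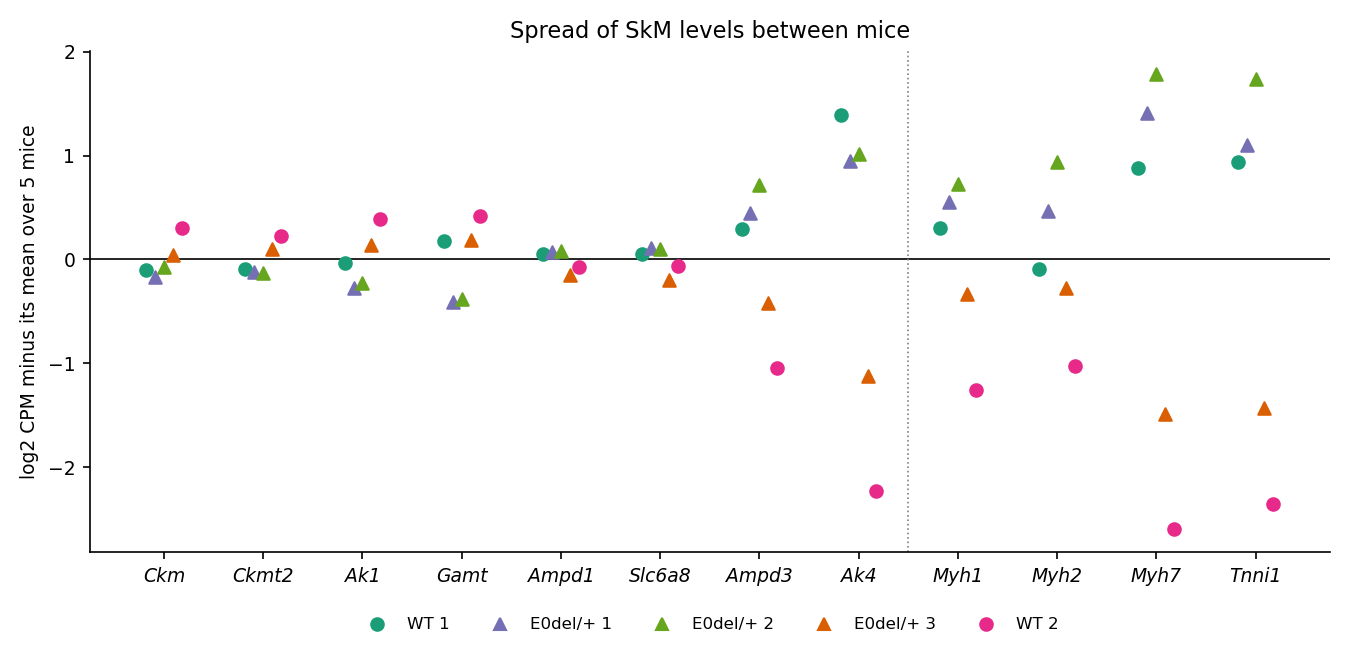
Level in SkM of each of the 5 mice for 7 members, Ak4 and 4 fibre genes, as log2 CPM minus the mean of the gene over the 5 mice. Ampd3 and Myh7 are lowest in WT 2 (11.2 and 73.8 CPM) and next lowest in E0del/+ 3.

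The genes whose pattern over the 9 libraries other than LV of WT 2 was most like a member were found among 8612 genes, by the root mean square difference of log2 CPM after each gene was centred. For Ckm they were Csda (0.11), Rtn2 (0.117), Gm14492 (0.136), Asb5 (0.158) and Phkb (0.187). For Ckmt2 they were Dtnbp1 (0.0817), Mrpl28, BC004004, Ndufab1 and Cyc1 (0.0914). For Ampd3 they were Hdac9 (0.12), Grb10, 6530418L21Rik, Lamb2 and Car14 (0.21), and for Ckb Fam69b (0.201), Lass4, Dlc1, Paqr9 and Mt1 (0.27). The Ckb list was the least stable, with 2 of 5 genes shared when all 10 libraries were used, against 5 for Ckm and Ampd3 and 4 for Ckmt2. Since 4 of the 9 libraries are LV and 5 are SkM, the difference between the tissues enters the measure.

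Markers of other cell types moved with the tissue as well. Between the tissues 4 of 4 endothelial markers and 5 of 5 fibroblast markers were higher in LV (median log2 difference 1.81 and 1.27), and 5 of 5 adipocyte markers were higher in SkM (median −5.97). All 8 ventricular markers were higher in LV (median 8.34) and all 10 fast fibre markers in SkM (median −10.38), while 1 of 4 slow fibre markers was higher in LV and 2 in SkM. Of 3 atrial markers tested 1 was higher in LV and 1 in SkM, of 4 smooth muscle markers 1 in LV and 0 in SkM, of 3 leukocyte markers 2 in LV and 0 in SkM, and of 3 Schwann cell markers 0 in LV and 2 in SkM.

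Summed levels of these lists were as follows, in CPM. The endothelial list, led by Cdh5, summed to 836 to 1680 in LV and 92.4 to 219 in SkM, and the fibroblast list, led by Dcn or Col3a1, to 837 to 1526 in LV and 136 to 476 in SkM. The atrial list summed to 202 to 594 in LV, led by Nppa, and to 5.42 to 17.2 in SkM, and the smooth muscle list to 174 to 286 in LV and 35.4 to 127 in SkM. The leukocyte list summed to 44.6 to 72.8 in LV and 2.97 to 85.8 in SkM, and the Schwann cell list to 12.8 to 28.3 in LV and 13.5 to 83.0 in SkM.

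Ampd3 is the AMP deaminase of red blood cells, so the red blood cell list was read beside it. Of its 5 genes, Alas2 alone had counts, at 21.7 to 31.6 CPM in LV and 2.52 to 19.99 CPM in SkM, and it was not called between the tissues. Hba-a1, Hba-a2, Hbb-b1 and Hbb-b2 are listed at 0 in every library, so that the list says little of blood in the samples. Its part in the level of Ampd3 was not tested.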

How the data were processed

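Poly(A) RNA libraries of LV and SkM from 5 mice were analysed (2 WT, 3 E0del/+). Samples were grouped by the labels of genotype, tissue and batch, and tissues were paired by the library name of the mouse. The authors deposited, for each library, raw counts per gene and RPKM values, the latter being counts per kilobase of summed exon length and per 1000000 counted reads. Build mm10 and the tools STAR and DESeq2 are named in the submitters' processing notes, while versions and the counting tool are not given in the sources used here. CPM was computed from the deposited counts, and family shares from the RPKM values. Total counts ran from 11010021 to 17484873 a library (median 14050602).

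Counts of all genes were fitted in R 4.3.3 with edgeR 4.0.16 (and limma 3.58.1) using TMM factors, filterByExpr and its quasi-likelihood test; p-values were adjusted by Benjamini-Hochberg over all genes tested, with a threshold of 0.05. LV and SkM were compared with the mouse as a block over the 4 mice other than WT 2, genotypes within each tissue without a block, and the interaction of genotype and tissue over all 10 libraries with the mouse as a block. Shares were compared by an exact two-sided permutation of signs within mice, which cannot go below 0.125 with 4 mice or 0.0625 with 5. Python 3.11.15, numpy 2.4.6, pandas 2.3.3, scipy 1.17.1 and matplotlib 3.10.9 were used for tables and figures. The fits were tested on simulated data in which all genes had the same relative spread, without mouse effects or an outlying library. That test does not show how the fits do with a library like LV of WT 2. Alternatives were DESeq2 size factors in edgeR, total counts, the Wald test of DESeq2 1.42.0, no filter (any gene with a count), at least 10 counts in every library, all 5 mice, the block added or left out, each mouse or library left out in turn, and a block by Xist over 100 CPM that was added after the data were seen. For likeness, a pseudocount of 0.5 (alternatively 0.1) and a mean of at least 10 CPM were used.

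Libraries with the same number share a batch label, which pairs WT and E0del/+ in batches 1 and 2. Deviations of such pairs from the tissue means over 8646 genes correlated at 0.0083 and −0.1478 in LV and at 0.3479 and 0.1532 in SkM. Replicates of a group differed by more than sampling noise, with a chi-square per degree of freedom of 12.8 or more.

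The members, pathway lists and marker lists were chosen with earlier results of these data known. All 10 members were named, and of each pathway list up to 4 genes with the highest mean RPKM in either tissue and any of the opposite direction. The marker lists were ventricular and atrial cardiomyocyte, fast and slow skeletal fibre, adipocyte, smooth muscle, endothelium, fibroblast, red blood cell, leukocyte and Schwann cell. P-values measure the spread between these mice. The result of 1 gene of the pathway lists is not reported here.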

Additional observations from a re-analysis of the deposited data

Results flagged for a closer look

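Among 34 groups of 5 libraries that were searched for a single library far from the rest, 7 held one, and each was LV of WT 2. The search looks for a gap to the nearest library that takes up most of the range, with a cut-off meant to mark about 1 in 20 groups by chance. The 7 hits cannot be set against that rate, since LV of WT 2 had been set apart before the search. The 34 groups are not independent, since shares within a family move together. LV of WT 2 stood above the other 4 LV libraries at 6710 CPM for Ckm and at 254.1 CPM for Ampd1. Its Ckm share of creatine kinase RPKM, 81.6%, and its Ckmt1 share, 0.0711%, stood above the other LV libraries, and its Ckmt2 share, 17.7%, stood below them. Its Ampd1 share of AMP deaminase RPKM, 83.8%, stood above and its Ampd3 share, 11.4%, below. The Ckmt1 share rests on 73 counts. The fast fibre markers summed to 39920 CPM in that library, and their part in these values was not tested.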

How the results depend on the processing

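Between the tissues, the 7 members called kept their direction and call in every one of 11 alternatives. Of the 110 values of members under those alternatives 103 kept direction and call, 5 passed the threshold anew and 2 turned, both of Gatm: 0.28 with total counts, and −0.75 to 0.0276 over the fits with 1 mouse left out. With total counts 5 members were higher in LV in place of 3. With all 5 mice the difference in share (LV minus SkM, percentage points) was −36.6 for Ckm, 35.6 for Ckmt2, 0.0294 for Ckmt1, −79.8 for Ampd1 and 64.4 for Ampd3, and without division by length −42.9 for Ckm and 41.9 for Ckmt2. For genotype in LV, 5 genes were called with the replicate block, and 0 to 578 genes and 0 to 2 members with 1 library left out; in SkM 1 gene was called with the block. The interaction gave 0 to 155 genes and 0 to 1 member with 1 mouse left out. In LV, 8 of 120 values turned and 2 passed the threshold anew. With 1 library left out, log2 differences in LV ran from −1.72 to 0.10 for Ckm, −7.65 to 0.16 for Ampd1, −0.11 to 0.33 for Ampd3, −0.11 to 0.13 for Slc6a8 and −0.56 to 0.53 for Gamt; Slc6a8 stood at 0.0367 with total counts and Gamt at 0.0739 with the block. In SkM 11 of 120 values turned, and the ranges were −0.48 to 0.18 for Ckm, −0.60 to 1.01 for Ckb, −0.39 to 0.19 for Ckmt2, −0.61 to 0.0609 for Ak1, −0.0517 to 0.0914 for Ampd1, −0.0585 to 0.0977 for Slc6a8 and, without a turn, −1.35 to −0.22 for Gatm, with Ckb at −0.43 under the block and Slc6a8 at −0.00138 under the Xist block. Without the mouse as a block Slc6a8 was called between the tissues (adjusted p 0.0301). Where a WT library is left out, the lone WT library is assumed to vary like the E0del/+ libraries. Apart from fewer samples, the cause of these changes was not tested. Low members (Ckb and Gatm in SkM, Ampd1 in LV) rest on few counts.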
